A study of Bos taurus with 90 samples.

Results

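The livers of 6 dairy cows fed a corn stover based diet were compared with those of 6 cows fed a rice straw based diet, using the samples whose labels give liver as the tissue and 1 of these 2 diets. These are 12 of the 90 samples of the series, which profiled small RNAs in rumen, duodenum, jejunum, liver and mammary gland of mid-lactation Chinese Holstein cows, 6 per diet, on corn stover, rice straw or alfalfa hay. Corn stover and rice straw are the residues left after grain harvest and are fed as roughage. The 6 alfalfa hay livers entered the model to estimate the spread and are given beside the results they touch. The labels give no age, lane, batch or date, so none of these could be set against diet. All 330 microRNAs (miRNAs) listed for liver were considered, and the 326 with more than 1 CPM (reads of a miRNA per 1000000 mapped miRNA reads) in more than 50% of the 18 liver samples were tested.

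miRNAs are short RNAs that guide Argonaute proteins to complementary sites in messenger RNAs, mainly through their seed near the 5′ end, and so lower the translation and stability of many transcripts at once. Hepatocytes, which make up most of the liver, hold an abundant set of them, led in most mammals by miR-122, which acts on cholesterol and lipid metabolism. The other miRNAs of a liver sample come from blood cells, vessels, stellate cells and bile ducts, and in bulk tissue fewer cells of a type and less RNA per cell cannot be told apart.

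No miRNA passed the test between corn stover and rice straw in the liver. With limma on log2(CPM + 1) and Benjamini-Hochberg adjustment, 0 of 326 miRNAs (0.0%) had an adjusted p under 0.05, and the smallest adjusted p was 0.336. At an unadjusted p under 0.05 there were 28 miRNAs (8.59%), of which 10 were higher (3.07%) and 18 lower (5.52%) in corn stover. That split was 12 higher and 11 lower with upper-quartile scaling and 13 higher and 15 lower with median-ratio scaling. Over all tested miRNAs 132 were higher and 194 lower in corn stover, with a median log2 difference of -0.05.

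A missed threshold does not show that the diets gave the same liver profile, so the intervals are given with it. The 95% interval of the difference lay within 2-fold either way for 272 of the 326 miRNAs (83.4%), and for 191 of the 218 with a mean of at least 10 CPM (87.6%). The median standard error was 0.23 on the log2 scale. A difference of 2-fold or more was estimated for 2 miRNAs, miR-205 (2.76) and miR-424-3p (-1.16), both low in abundance.

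**Figure D1:**
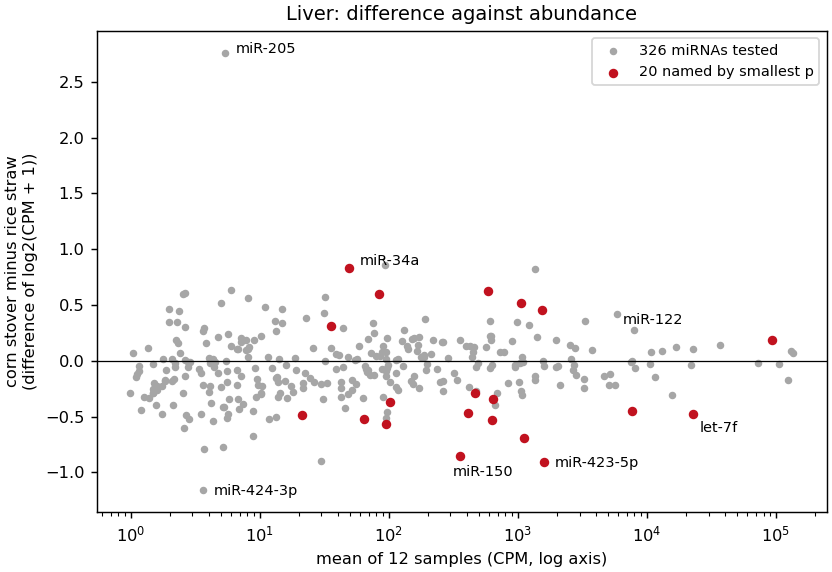
Difference between corn stover and rice straw, on the log2(CPM + 1) scale, against the mean CPM of the 12 samples on a log axis, for the 326 miRNAs tested in liver. Each point is a miRNA, and red points are the 20 with the smallest p among those with a mean of at least 10 CPM. The points gather around a median of -0.05, and miR-205 stands alone at 2.76.

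Library measures did not differ between the diets beyond the spread between livers. Mapped reads ran from 2613978 to 4532833 in corn stover (median 3137084) and from 2004942 to 7684530 in rice straw (median 4363444), with an exact permutation p of 0.184. The number of miRNAs above 1 CPM was 316.0 ± 4.15 in corn stover and 317.7 ± 1.75 in rice straw (SD, n = 6 each, exact permutation p = 0.483). The 10 most abundant miRNAs took 76.9% ± 1.05 and 76.4% ± 1.27 of the reads (SD, n = 6 each, exact permutation p = 0.539). After adjustment over these 3 measures each p was 0.539, and the smallest p that 6 against 6 allows is 0.002165. Along the first principal component of the 18 livers, which carried 21.4% of the variance, alfalfa hay replicate 2 lay at -14 and the others between -2.5 and 6.11.

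The miRNAs that define liver differed little between the diets. miR-122 ran from 8671 to 11090 CPM in corn stover (median 10870) and from 9230 to 12720 CPM in rice straw (median 10610). The ranges overlapped over most of their length, and the log2 difference was -0.03 (95% interval -0.22 to 0.16). miR-192, a miRNA of liver and gut epithelium and the most abundant here, ran from 114100 to 165400 CPM in corn stover (median 136000) and from 113700 to 188700 CPM in rice straw (median 124900). It took 13.9% ± 1.76 of corn stover reads and 13.4% ± 2.75 of rice straw reads (SD, n = 6 each), a log2 difference of 0.07 (95% interval -0.17 to 0.30). Its cluster partner miR-194 differed by -0.01 (95% interval -0.24 to 0.22). miR-148a, which is abundant in hepatocytes, had medians of 105700 and 108100 CPM and a difference of -0.03 (95% interval -0.25 to 0.19). All 6 hepatocyte markers listed were present, with 1 higher and 5 lower in corn stover and a median difference of -0.03, which moved to 0.01 with trimmed-mean or median-ratio scaling.

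The other abundant miRNAs were also close. miR-22-3p had medians of 112200 CPM in corn stover and 132600 CPM in rice straw, a log2 difference of -0.17 (95% interval -0.50 to 0.16). miR-143, a miRNA of smooth muscle and other mesenchymal cells, had medians of 137000 and 132100 CPM, a difference of 0.09 (95% interval -0.29 to 0.48). miR-26a, with the smallest standard error of the 10 most abundant (0.07), ran from 67520 to 76890 CPM in corn stover and from 68700 to 82250 CPM in rice straw, a difference of -0.02 (95% interval -0.17 to 0.14). miR-27b (0.14), miR-126-5p (0.10) and miR-101 (-0.04) had intervals that included 0. The 95% intervals of all these miRNAs lay within 2-fold.

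**Figure D2:**
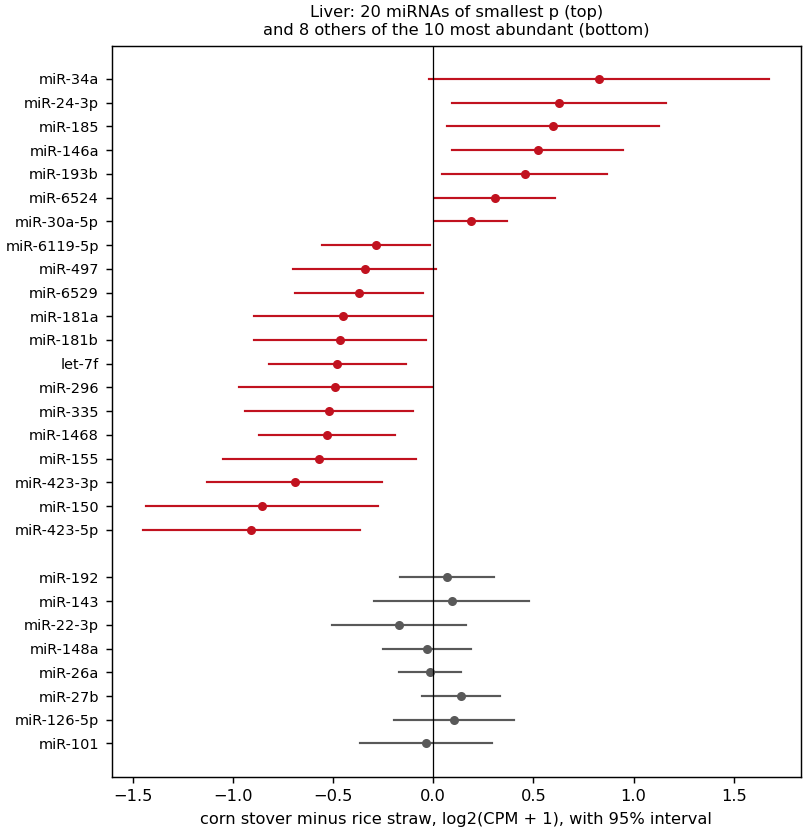
Corn stover minus rice straw differences on the log2(CPM + 1) scale with 95% intervals from the fit of 18 liver samples, for the 20 miRNAs of smallest p (red) and for 8 others of the 10 most abundant (grey). The grey intervals all include 0 and stay within 1 log2 unit of it, while the red ones range from -0.91 for miR-423-5p to 0.83 for miR-34a, none past the adjusted threshold.

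miR-205 was the 1 miRNA of 326 (0.307%) whose corn stover and rice straw livers did not overlap. It is a miRNA of stratified epithelia and of the mammary gland that represses the transcription factors ZEB1 and ZEB2, and it was named here after its values were seen. It measured 12.6, 13.0, 7.65, 12.4, 9.20 and 6.24 CPM in corn stover replicates 1 to 6. In rice straw replicates 1 to 6 it measured 0.499, 1.36, 0.738, 0.198, 0.820 and 0.260 CPM. The lowest corn stover liver was thus well above the highest rice straw liver.

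The miR-205 values rest on few reads, which were inferred from the steps of the deposited CPM. Corn stover libraries held 20 to 56 reads each and rice straw libraries 1 to 5, in all 207 of 20210061 mapped reads against 16 of 27494858. The ratio of the pooled shares was 17.6 (95% exact interval 10.6 to 31.4). That interval treats reads as independent, although they are not independent molecules, and leaves out the spread between livers. The fitted difference was 2.76 on the log2(CPM + 1) scale, which understates changes of low miRNAs.

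Whether that difference passed depended on 1 alfalfa hay liver. Alfalfa hay replicates 1, 3, 4, 5 and 6 measured 1.39, 0.212, 1.07, 2.045 and 0 CPM, whereas replicate 2 measured 1525 CPM, from 10641 reads. A count of 0 in replicate 6 allows no more than 3 reads, and 3 reads were worth 0.430 to 0.694 CPM in the alfalfa hay libraries. With all 18 livers in the fit the standard error was 1.19 and the limma adjusted p was 0.560. Without alfalfa hay replicate 2 the standard error was 0.27 and the adjusted p 1.648e-06, and the 12 livers of the 2 diets alone gave 0.23 and 1.817e-06. In both of these fits miR-205 was the 1 miRNA of 326 called (0.307%). In fits chosen after seeing the data, the 12 livers alone also called it with any 1 of them left out. Since the groups did not overlap, leaving out 1 liver was unlikely to change that call.

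**Figure D3:**
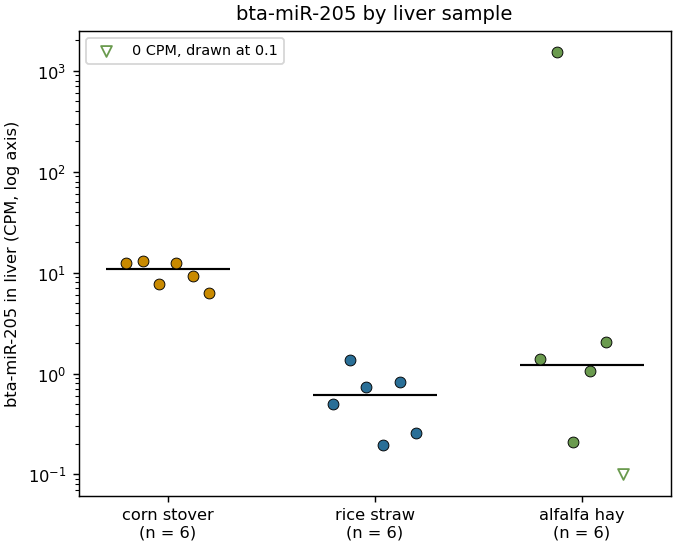
miR-205 in each of the 18 livers, in CPM on a log axis, with a bar at the median of each diet (n = 6) and a 0 drawn as an open triangle at 0.1. The 6 corn stover points lie between 6.24 and 13.0 CPM, above all 6 rice straw points, and alfalfa hay replicate 2 lies at 1525 CPM.

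Rumen and mammary gland carried far more miR-205 than liver. Rumen epithelium had a mean of 32670 ± 7852 CPM in corn stover and 30800 ± 5039 CPM in rice straw (SD, n = 6 each), and mammary gland 3978 ± 1705 and 3914 ± 2916 CPM. The corn stover liver mean of 10.2 CPM equals 0.0311% of the corn stover rumen mean and 0.256% of the corn stover mammary mean. Duodenum ran from 0.582 to 3.90 CPM in corn stover and from 0.324 to 5.08 CPM in rice straw, and the diets overlapped. miR-205 was not listed for jejunum.

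For 12 liver-listed miRNAs the rumen mean was at least 3 times that of each other tissue. The 11 other than miR-205 overlapped between the diets in liver, with log2 differences from -0.40 for miR-31 to 0.34 for miR-21-3p. Over all 326 tested miRNAs only miR-205 did not overlap (0.307%), so the overlap is not particular to these 11. miR-378, the most abundant of them at a rumen mean of 55200 CPM, ran from 843.3 to 1087 CPM in corn stover livers and from 891.5 to 1503 CPM in rice straw livers. Alfalfa hay replicate 2 was the highest of the 6 alfalfa hay livers for 9 of these 11, from miR-378 at 4368 CPM against at most 1301 CPM in the other 5 to miR-31 at 874.7 against 761.6 CPM. It was not the highest for miR-149-5p (21.9 against 44.0 CPM) and miR-193a-3p (193.4 against 418.3 CPM). The replicate was also the highest for miRNAs outside this list, such as miR-26a (87820 CPM) and miR-142-5p (9457 CPM). For others, such as let-7f (16980 CPM), it was not. How often it was the highest over all 326 tested miRNAs was not counted. The 9 of 11 are thus not shown to be particular to rumen-enriched miRNAs. The part of these rumen-enriched miRNAs in the alfalfa hay replicate 2 values was not tested.

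The miRNAs with the smallest p were led by both arms of miR-423, a single hairpin expressed in most tissues. miR-423-5p ran from 657.3 to 1527 CPM in corn stover (median 1030) and from 928.6 to 2683 CPM in rice straw (median 2143). All 6 corn stover livers were below the rice straw mean, and the difference was -0.91 (SE 0.26, limma adjusted p = 0.336). The same 6 of 6 held for let-7a-5p, at an unadjusted limma p of 0.149. How many of all 326 tested miRNAs had it was not counted, here or for the miRNAs below. It is not evidence beyond the p by which these miRNAs were chosen. miR-423-3p, the other arm, had medians of 795.1 and 1547 CPM and differed by -0.69 (SE 0.21, limma adjusted p = 0.336). Both arms were thus lower in corn stover by like amounts without passing the threshold.

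miR-1468 and let-7f stood in the same order. miR-1468 ran from 413.8 to 583.3 CPM in corn stover (median 515.9) and from 466.9 to 994.0 CPM in rice straw (median 730.4), a difference of -0.53 (SE 0.16, limma adjusted p = 0.336). let-7f, the most abundant let-7 member of liver and a repressor of growth genes such as LIN28 and HMGA2, ran from 15030 to 22760 CPM in corn stover (median 18500) and from 15060 to 32610 CPM in rice straw (median 27730). Its difference was -0.48 (SE 0.16, limma adjusted p = 0.452), and it took 1.87% of corn stover reads and 2.66% of rice straw reads. miR-424-3p, the minor arm of an X-linked cluster, is below the abundance used for naming and was picked out after its values were seen. It had medians of 1.56 and 4.04 CPM and a difference of -1.16 (SE 0.35, limma adjusted p = 0.336).

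Rice straw replicate 6 decided these calls. It was the deepest of the 12 libraries, with 7684530 mapped reads. Its miR-423-5p was 928.6 CPM, while the other 5 rice straw livers ran from 2002 to 2683 CPM. Its miR-423-3p was 674.5 against 1228 to 1698 CPM, its miR-1468 466.9 against 714.4 to 994.0 CPM and its let-7f 15060 against 25960 to 32610 CPM. In each case the replicate lay inside the corn stover range and the other rice straw livers lay above it.

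Without rice straw replicate 6, 5 of 326 miRNAs were called (1.53%), all lower in corn stover. These were miR-424-3p (-1.42), miR-423-5p (-1.12), miR-423-3p (-0.89), miR-1468 (-0.66) and let-7f (-0.63), with limma adjusted p from 0.00896 to 0.0205. The groups then did not overlap for 12 of 326 miRNAs (3.68%), 3 higher and 9 lower in corn stover, which beside miR-205 included miR-133b, miR-296, miR-28, miR-361, miR-375 and miR-2284x. No label sets this replicate apart, so the values with it are the ones reported and those without it stand beside them. Weighting all 18 livers by their own spread, a setting chosen after seeing the data, left none out but gave deviating livers less weight. It called 10 of 326 (3.07%), among them the same 5, miR-205, miR-150 (-0.93), miR-28 (-0.44), miR-133b (0.69) and miR-193b (0.59). There miR-424-3p stood at the threshold of 0.05. The 12 livers of the 2 diets alone without rice straw replicate 6, also chosen after seeing the data, called 5 of 326 (1.53%). These were miR-205 and 4 of the same 5, without miR-424-3p.

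**Figure D4:**
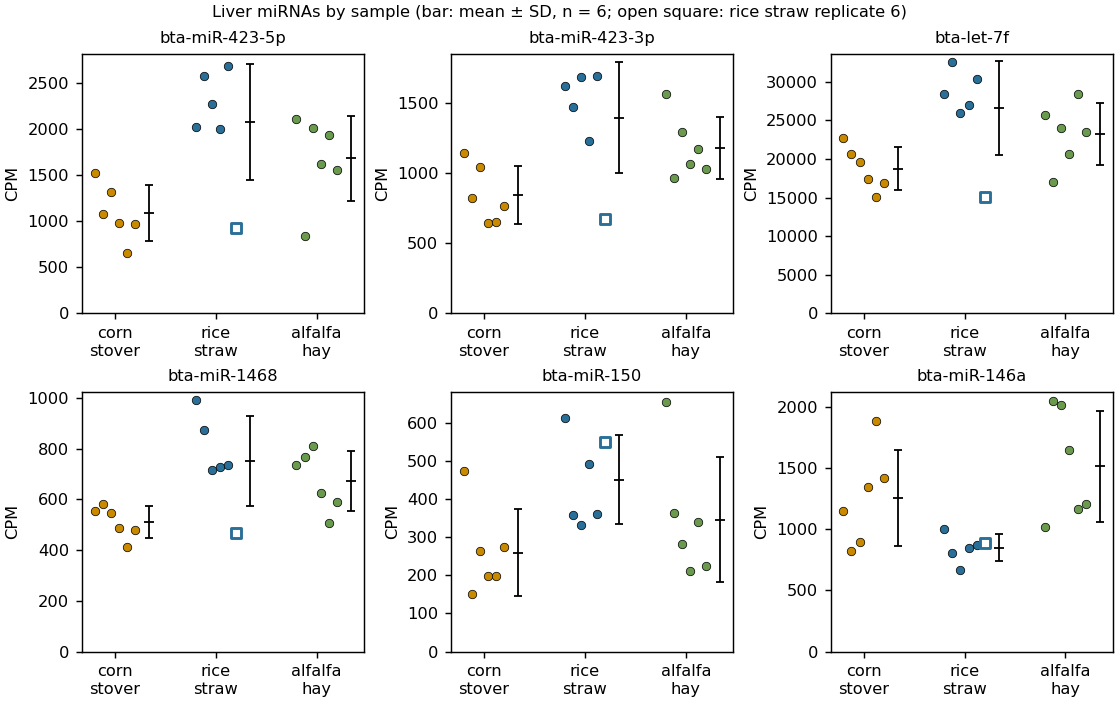
CPM of 6 miRNAs in each of the 18 livers, with mean ± SD (n = 6) beside each diet and rice straw replicate 6 as an open square. For miR-423-5p, miR-423-3p, let-7f and miR-1468 the square lies among the corn stover points and the other 5 rice straw points lie above them, whereas for miR-150 and miR-146a it lies among the rice straw points.

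The comparisons of each diet with alfalfa hay share samples with each other and with the comparison above, so their values are given side by side. miR-423-5p differed by -0.62 between corn stover and alfalfa hay and by 0.29 between rice straw and alfalfa hay. let-7f differed by -0.31 and 0.17, and miR-146a by -0.27 and -0.80. Against alfalfa hay, 0 of 326 miRNAs were called for either diet (0.0%), with 16 (4.91%) at an unadjusted p under 0.05 for corn stover and 10 (3.07%) for rice straw.

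No miRNA of immune cells passed the test, and the estimates lay in both directions. miR-150, a miRNA of mature lymphocytes, ran from 150.4 to 473.7 CPM in corn stover (median 230.4) and from 331.8 to 613.0 CPM in rice straw (median 426.4), a difference of -0.86 (SE 0.28, limma adjusted p = 0.384). With corn stover replicate 1 left out its groups no longer overlapped, as for 7 of 326 miRNAs (2.15%). miR-155, which is induced in activated lymphocytes and macrophages, had medians of 73.3 and 107.5 CPM, a difference of -0.57 (limma adjusted p = 0.560). miR-146a, a brake on Toll-like receptor signaling, ran the other way, with medians of 1249 and 857.5 CPM and a difference of 0.52 (SE 0.20, limma adjusted p = 0.560). The broad leukocyte miRNA miR-142-5p had medians of 5334 and 5069 CPM and differed by -0.12 (95% interval -0.44 to 0.20).

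Of the 8 leukocyte markers, 0 were called, 1 was higher and 2 were lower at an unadjusted p under 0.05, and the median difference was -0.19 beside -0.05 over all miRNAs tested. Their summed level ran from 5161 to 8905 CPM in corn stover and from 6641 to 9271 CPM in rice straw. miR-146b was pulled up by 1 sample, with a corn stover maximum of 439.4 CPM beside a median of 77.8 CPM. Of the 4 miR-181 members, a family that tunes T cell receptor sensitivity, all were lower in corn stover, with a median of -0.30. Over all tested miRNAs 194 of 326 (59.5%) were lower, and 28 (8.59%) had an unadjusted p under 0.05. Of the miR-181 members 2 had an unadjusted p under 0.05. The neighbors miR-181a (medians 6492 and 8715 CPM, difference -0.45) and miR-181b (medians 339.3 and 489.7 CPM, difference -0.47) made up those 2.

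Among the miRNAs estimated higher in corn stover, miR-24-3p ran from 451.0 to 1297 CPM in corn stover (median 672.1) and from 383.3 to 549.8 CPM in rice straw (median 429.6), a difference of 0.63 (SE 0.25, limma adjusted p = 0.560). Its genomic neighbors miR-23b-3p (0.35) and miR-27b (0.14) and, beside a further copy, miR-23a (0.13) and miR-27a-3p (-0.05) had smaller estimates, and the other arm listed as miR-24 differed by 0.04 at a mean of 8.05 CPM. Reads of miR-24-3p copies cannot be assigned to 1 locus. miR-34a, a p53 target that represses SIRT1, had medians of 39.1 and 23.2 CPM and a difference of 0.83 (95% interval -0.02 to 1.68). Corn stover replicate 5 alone reached 198.8 CPM, and the rice straw maximum was 72.3 CPM.

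miR-185, reported to repress the sterol regulator SREBP-2, had medians of 96.8 and 71.6 CPM and a difference of 0.60 (SE 0.25). miR-193b, which shares a cluster with miR-365, had medians of 1602 and 1153 CPM and a difference of 0.46 (SE 0.20). miR-30a-5p, a repressor of the autophagy gene BECN1 and among the most abundant liver miRNAs, had medians of 97070 and 86250 CPM and a difference of 0.19 (SE 0.09). On the log2 scale all 6 corn stover livers were above the rice straw mean for each of these 3, and the limma adjusted p was 0.560. The same 6 of 6 held for miR-16a, at an unadjusted limma p of 0.156. Rice straw replicate 6 was the highest rice straw liver for all 3.

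The remaining miRNAs of smallest p were mostly lower in corn stover. miR-335, which lies in the imprinted gene MEST, had medians of 49.5 and 66.2 CPM and a difference of -0.52. miR-296 had medians of 17.7 and 25.1 CPM (-0.49), miR-6529 84.3 and 119.2 CPM (-0.37), miR-6119-5p 415.2 and 519.0 CPM (-0.29) and miR-6524 40.8 and 32.7 CPM (0.31). miR-497, a cell cycle regulator of the miR-15 and miR-16 family, differed by -0.34, while its cluster partner miR-195 differed by 0.19. Adjusted p over these miRNAs was 0.560 to 0.574 with limma.

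miRNAs tied to lipid and glucose metabolism were split between the directions. Of 16 listed for liver, 0 were called, 6 were higher and 10 lower in corn stover, with a median of -0.03, and 1 (miR-335) had an unadjusted p under 0.05. miR-33a, which lies in an SREBP gene and limits cholesterol export, had medians of 27.0 and 24.6 CPM, a difference of 0.11 (95% interval -0.30 to 0.52). miR-103 (-0.04) and miR-107 (-0.02), regulators of insulin sensitivity, had 95% intervals of -0.34 to 0.26 and -0.33 to 0.29. miR-378, which lies in the gene of the coactivator PGC-1 beta, differed by -0.19 (95% interval -0.78 to 0.40).

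Over all tested miRNAs 194 of 326 (59.5%) were below 0, with a median of -0.05, and the family counts here stand beside that share. The let-7 family was mostly lower in corn stover, with 9 of 10 members below 0, a median of -0.12 and 1 member, let-7f, at an unadjusted p under 0.05. Its near-identical members can share reads, so they are not independent. let-7a-5p, which neighbors let-7f, had medians of 11220 and 12030 CPM and a difference of -0.14 (95% interval -0.34 to 0.06), and let-7d differed by -0.29. The ruminant miR-2284 and miR-2285 family had 15 of 18 members below 0 and a median of -0.15, with none at an unadjusted p under 0.05. The miR-15 and miR-16 family had a median of -0.17 over 7 members and the miR-29 family, which represses collagens, -0.17 over 3. Both directions were balanced in the miR-17-92 and related clusters (6 higher, 6 lower, median 0.02) and in the imprinted DLK1-DIO3 cluster (15 higher, 16 lower, median -0.0050).

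Further families held few members near the threshold. The miR-30 family had a median of 0.01 over 6, the miR-148 and miR-152 family 0.12 over 3, the miR-130 and related family 0.02 over 5 and the miR-34 and miR-449 family 0.17 over 3. The miR-424 cluster had -0.14 over 5 and the miR-362 cluster 0.01 over 8. Several members had wide spread, as miR-450b, which ran from 92.4 to 291.1 CPM in corn stover and from 77.0 to 294.6 CPM in rice straw.

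Markers of other cell types in the tissue overlapped between the diets. The sum of 3 erythrocyte miRNAs ran from 1154 to 6661 CPM in corn stover and from 2498 to 5646 CPM in rice straw, with a median difference of -0.08. The 6 mesenchymal markers summed to 96910 to 175100 and 91170 to 186000 CPM, with a median of 0.14. The pair of endothelial miRNAs summed to 23820 to 33070 and 24580 to 36510 CPM (median -0.05), and the 5 miR-200 family members of biliary and other epithelia to 360.0 to 736.8 and 324.6 to 659.9 CPM (median -0.07). The 4 striated muscle miRNAs had a median of 0.37 and summed to at most 283.9 and 227.9 CPM. Of these, miR-1 (medians 3.26 and 1.67 CPM, difference 0.61) and miR-133b (medians 3.13 and 1.79 CPM, difference 0.60) had an unadjusted p under 0.05 at a few CPM, and the others were miR-133a (0.14) and miR-499 (0.02).

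The liver difference was then set against that of each other tissue by testing the interaction. No miRNA passed the limma interaction test between liver and rumen (0 of 304, 0.0%, with 13 at an unadjusted p under 0.05). None passed between liver and duodenum (0 of 306, 0.0%, with 19). These fits kept liver alfalfa hay replicate 2, with miR-205 at 1525 CPM. The miR-205 interaction was 2.69 against rumen (SE 1.27, limma adjusted p = 0.928) and 2.91 against duodenum (SE 1.32, limma adjusted p = 0.740). Without that replicate the standard error of the liver difference alone was 0.27. The miR-205 interaction without it was not tested. Against jejunum 49 of 307 differed (16.0%), with the corn stover minus rice straw difference higher in liver for 30 and lower for 19. Against mammary gland 75 of 306 differed (24.5%), higher in liver for 4 and lower for 71. With trimmed-mean scaling these became 61 (25 higher, 36 lower) for jejunum and 28 (12 higher, 16 lower, 20 of them shared with the 75) for mammary gland. The rice straw mammary libraries were uneven in depth, from 1527304 to 8364602 mapped reads. Replicates 1 and 5 of them had the most miRNAs at 0 CPM (22 and 16). Corn stover mammary libraries ran from 4421565 to 5755198 mapped reads, without a miRNA at 0 CPM. The part of depth in the mammary gland differences was not tested.

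In those miRNAs the liver difference was the smaller one for 42 of 49 against jejunum and for 72 of 75 against mammary gland. The median absolute log2 difference was 0.29 in liver and 0.76 in jejunum over the 49, and 0.17 in liver and 1.38 in mammary gland over the 75, which were chosen for that gap. Over all miRNAs tested it was 0.18 in liver and 0.34 in jejunum, and 0.19 in liver and 0.70 in mammary gland. Tested within each tissue in the same way, 96 of 336 miRNAs were called in jejunum and 86 of 323 in mammary gland, against 0 in liver, rumen (12 at an unadjusted p under 0.05) and duodenum (45).

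Of the 20 miRNAs with the smallest p in liver, 8 differed from jejunum and 6 from mammary gland. Over all miRNAs tested 16.0% differed from jejunum and 24.5% from mammary gland. The 20 were chosen on the liver difference, which is part of the same interaction, so their counts are not a test of these miRNAs. miR-423-3p was -0.69 in liver and 1.63 in jejunum, a difference of -2.32 (SE 0.27, limma adjusted p = 6.073e-08), and miR-423-5p was -0.91 and 0.54. miR-146a was 0.52 in liver and -0.98 in jejunum, and miR-24-3p 0.63 and -0.78. Both arms of miR-423 and both of these miRNAs thus had opposite signs in liver and jejunum. Against mammary gland, miR-150 was -0.86 in liver and 1.40 in mammary gland, let-7f -0.48 and 0.71, and miR-497 -0.34 and 1.84.

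**Figure D5:**
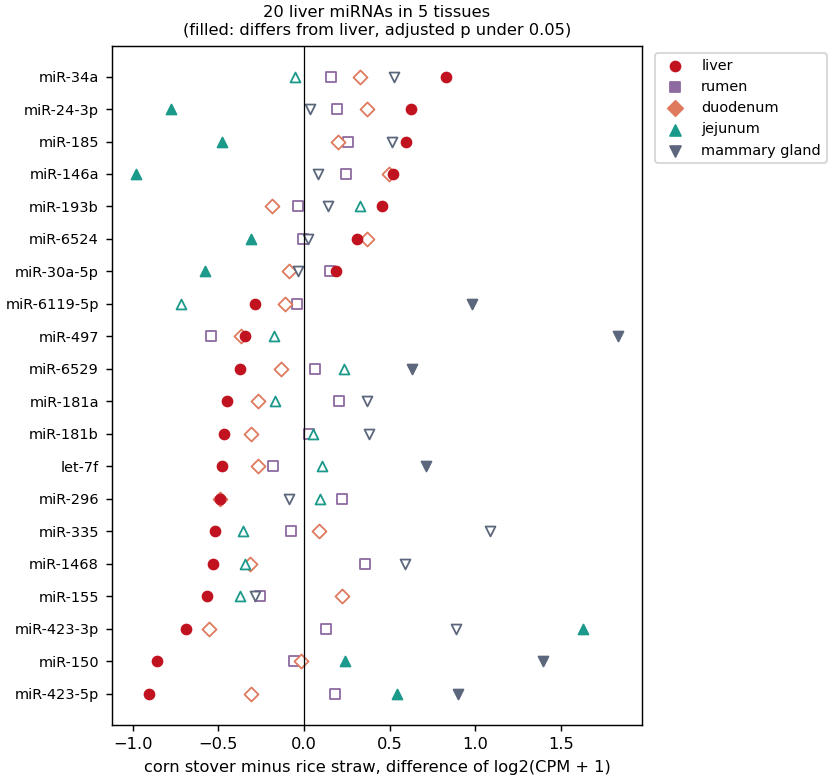
Corn stover minus rice straw difference, on the log2(CPM + 1) scale, of the 20 miRNAs of smallest p in liver (red circles) in rumen, duodenum, jejunum and mammary gland. Filled symbols differ from liver at a limma adjusted p under 0.05. There are 8 in jejunum and 6 in mammary gland and none in rumen or duodenum, and miR-423-3p shows the widest gap, at -0.69 in liver and 1.63 in jejunum.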

How the data were processed

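Small RNA libraries of liver from 18 cows (6 per diet) were analysed, with the other 4 tissues for the interaction tests. Per the study's methods, the authors filtered reads with CASAVA 1.8, trimmed and aligned them with sRNAbench to bovine precursors of miRBase 22, and scaled read numbers to the sum over all annotated miRNAs of a library, which gives the deposited CPM. Up to 10 mappings per read were kept, so near-identical members can share reads. Mapped reads were inferred from the steps between low CPM values, taking the largest step that made them whole multiples (tolerance 0.01 read) as 1 read. They are estimates, and a finer step would give larger totals. The study's methods set a minimum read count above 1, yet miR-205 in rice straw replicates 1 and 4 came to 1 read. Inferred reads this few are therefore uncertain. On them 3 reads were worth 0.662 to 1.15 CPM in corn stover and 0.390 to 1.50 CPM in rice straw. Intervals and floors taken from reads cover counting error alone, with reads treated as independent.

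log2(CPM + 1) was tested with limma 3.58.1 in R 4.3.3, with an intensity trend, over the 18 livers. Benjamini-Hochberg adjustment covered all 326 miRNAs, at a threshold of 0.05. The method was tested on simulated data. Interaction fits used the 36 samples of liver and 1 other tissue as independent samples, although the tissues came from the same 18 cows. The cow as a block was an alternative. It takes the same diet and replicate number as the same cow, which the labels do not state. The permutation tests were exact and two-sided. Named miRNAs were the 20 with the smallest p at a mean of at least 10 CPM, the 10 most abundant, and the 2 most abundant of each list, 57 in all. The members and lists were chosen with earlier results of these data known. Genomic neighbors came from RefSeq (324 of 326 matched, within 10 kb).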

Additional observations from a re-analysis of the deposited data

Results flagged for a closer look

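Samples that stood apart from their diet group were looked for in 116 groups of 6 livers, by the gap of the highest or lowest sample on the log2(CPM + 1) scale as a share of the range (Dixon's test at the 95% level). Chance gives about 1 in 20 for independent groups. These groups share the same livers, and part of the miRNAs were chosen on the same values. That rate is therefore no measure for the count here. There were 16 such cases, and 9 of them were rice straw replicate 6. That liver was low for miR-423-5p (928.6 CPM), miR-423-3p (674.5 CPM), let-7f (15060 CPM), miR-181b (238.5 CPM), miR-296 (11.71 CPM) and miR-16b (1074 CPM). It was high for miR-192 (188700 CPM), miR-126-5p (31160 CPM) and miR-2285f (645.6 CPM).

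Corn stover replicate 5 was high for miR-34a (198.8 CPM) and miR-148b (626.1 CPM) and low for miR-101 (14580 CPM). Corn stover replicate 4 was low for miR-296 (11.69 CPM) and corn stover replicate 3 high for miR-450b (291.1 CPM). Rice straw replicate 2 was low for miR-101 (17390 CPM) and miR-29a (4474 CPM).

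The corn stover minus rice straw difference of 32 named miRNA and tissue pairs differed from that in liver by the limma interaction test, 13 in jejunum and 19 in mammary gland, and the values that follow are liver minus the other tissue on the log2 scale. Against jejunum the difference was higher in liver for miR-146a (1.504), miR-24-3p (1.403), miR-185 (1.079), miR-126-5p (1.05), miR-16a (0.8227), miR-30a-5p (0.7638), miR-6524 (0.6184) and miR-26a (0.4613). It was lower in liver for miR-423-3p (-2.319), miR-92a (-1.814), miR-423-5p (-1.449), miR-150 (-1.092) and miR-532 (-0.5865). Adjusted p ran from 6.073e-08 to 0.03729 by limma.

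Against mammary gland the difference was higher in liver for miR-143 (0.8307). It was lower in liver for the lymphocyte miRNA miR-150 (-2.252), for miR-497 (-2.178), miR-499 (-2.103), miR-29a (-1.965), miR-34c (-1.944), miR-29c (-1.856), miR-126-3p (-1.841), miR-423-5p (-1.805), miR-22-3p (-1.782), miR-142-5p (-1.736) and miR-16b (-1.705). Smaller differences of that sign were those of miR-450a (-1.521), miR-199a-3p (-1.518), miR-6119-5p (-1.267), let-7f (-1.19), miR-30e-5p (-1.071), miR-6529 (-1.003) and miR-27b (-0.5743). The mammary gland differences moved with the scaling and came from libraries of uneven depth, as given with the interaction counts.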

How the results depend on the processing

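The count of 0 called miRNAs held with pseudocounts of 0.1 and 5 CPM, the 3 further scalings, no filter or a mean of at least 10 CPM, no intensity trend, robust moderation (chosen after seeing the data) and a replicate block. It was 1 with the 12 livers alone, and, in settings chosen after seeing the data, 1 without alfalfa hay replicate 2 and 10 with sample weights. Leaving out each corn stover or rice straw liver in turn gave 0 to 5, the 5 without rice straw replicate 6. In the 12 livers alone, a setting chosen after seeing the data, it gave 1 to 5. Planned count models on recovered reads were not run, since most libraries have too few values of low read number to establish the recovered reads as counts.

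Same-numbered corn stover and rice straw livers did not deviate together (correlations -0.18 to 0.34, and 2 of 6 corn stover livers closest to their own number), so the numbers were not taken as pairs. The replicate block called 0, with 32 rather than 28 miRNAs at an unadjusted p under 0.05. With the cow as a replicate block in the interaction tests, 37 (36 shared with the 49) differed from jejunum and 64 (61 shared with the 75) from mammary gland, and with trimmed-mean scaling 28 differed from mammary gland.

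Of 58 miRNAs (the 57 named and miR-205), 17 changed sign in some setting. Their main estimates ran from -0.19 for miR-450a to 0.17 for miR-34c. None of the 20 with the smallest p changed sign. These 20 were chosen in the same data for differences large against their error, so a kept sign was likely in advance. The cause of the sign changes was not tested. With trimmed-mean, upper-quartile and median-ratio scaling miR-26a became 0.0203, 0.0132 and 0.025. With trimmed-mean and median-ratio scaling miR-148a became 0.00631 and 0.011 and miR-101 0.00104 and 0.00573, and with median-ratio scaling miR-660 became 0.0046. With sample weights miR-148a became 0.0102, miR-26a 0.0189, miR-301a -0.032, miR-451 -0.359, miR-133a -0.138 and miR-499 -0.0488. Leaving out 1 liver at a time, the ranges that crossed 0 were -0.0142 to 0.197 for miR-143, -0.0876 to 0.03 for miR-148a, -0.0359 to 0.0161 for miR-26a, -0.104 to 0.0755 for miR-101, -0.144 to 0.0616 for miR-130a, -0.045 to 0.0684 for miR-301a, -0.0907 to 0.376 for miR-34c, -0.352 to 0.0586 for miR-450b, -0.379 to 0.000261 for miR-450a, -0.0137 to 0.0777 for miR-532, -0.0641 to 0.362 for miR-411a, -0.291 to 0.219 for miR-486, -0.138 to 0.371 for miR-451, -0.206 to 0.0635 for miR-200a, -0.00555 to 0.28 for miR-133a and -0.0394 to 0.0999 for miR-499. Depth limits miRNAs near 1 CPM, where a library holds a few reads.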
